A study of Rattus norvegicus with 54 samples.

Results

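The transcripts of 45 cell cycle and proliferation genes were followed through the injured and treated left ventricle of the rat. The genes were chosen by name, with earlier results of these data known. They were 27 whose products act in mitosis and 15 that act in S phase or in the entry into it. The others were the D-type cyclins Ccnd1 and Ccnd2 and the inhibitor Cdkn1a. A further D-type cyclin, Ccnd3, was not among the 45. All 45 were found among the 40319 genes counted in every library, and all 45 passed the filter on low counts in every comparison. The libraries came from 18 female athymic rats (F344/NJcl-rnu/rnu, 8 weeks old at surgery), a strain without a thymus and therefore poor in T cells. There were 3 groups of 6 hearts: sham-operated hearts, hearts with untreated myocardial infarction (MI) by permanent ligation of the proximal left anterior descending artery, and hearts with the same infarct that received a bi-level cell sheet on the surface of the ischemic area (cell sheet-treated). The sheet joined a layer of endothelial progenitor cells with a layer of smooth muscle cells, both of human origin, so that the treated hearts were xenografted and all hosts shared the immune defect. Hearts were taken 1 week after surgery, and each was sampled at 3 places, the anterior wall (infarct zone), the lateral wall (border zone) and the septum (remote zone), which makes 54 libraries. In sham hearts the zone names mark the matching position only. The labels call the replicates technical while the study describes separate hearts, and if the labels are right the p-values measure technical spread only.

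Dividing cells pass through S phase, in which DNA is copied once, and then through mitosis, in which the copies are separated. Entry into S phase is driven by D-type cyclins, cyclin E and E2F factors, and the genes of DNA synthesis are transcribed around that step. Mitotic genes are transcribed later, when the DREAM repressor has left their promoters and the B-MYB and FOXM1 activators have bound. Most adult cardiomyocytes do not divide, whereas macrophages, fibroblasts and endothelial cells of an infarct scar can proliferate. Cdkn1a encodes p21, an inhibitor of cyclin-dependent kinases and a classical target of p53.

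The division of the list into S phase and mitotic genes was also visible in promoter sequence, which the choice of the genes did not use. Promoters of 34 of the 45 genes were matched in the RefSeq table of the GRCr8 assembly, and the 250 bases before each start were searched on both strands for 3 motifs. These were the cell cycle homology region (CHR, TTTGAA), the CCAAT box, and an E2F word, which was any of TTCCCGC with its variants TTCGCGC beside TTGGCGC as well as TTGCCGC. A CHR was present in 11 of 22 mitotic promoters and in 1 of 11 S phase promoters (9.09%), beside 16.2% of all 33469 promoters. An E2F word was present in 4 mitotic promoters (18.2%) and in 6 S phase promoters (54.5%), beside 7.59% of all. CCAAT stood in 81.8% of the mitotic, 54.5% of the S phase and 34.0% of all promoters. Among the 15536 promoters of genes tested here the shares were 11.7% for CHR, 11.5% for E2F words and 33.8% for CCAAT. The 120 bases before the start are shown for 4 mitotic and 4 S phase genes, picked as examples that hold the motif of their class. They run 5′ to 3′ on the strand of the gene, with every match in capitals (touching or overlapping matches merge into a single run).
Mki67, chr1:199952594-199952713, minus strand: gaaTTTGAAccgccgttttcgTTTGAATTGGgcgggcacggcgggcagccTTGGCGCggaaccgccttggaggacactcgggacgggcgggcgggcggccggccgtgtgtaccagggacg
Cdk1, chr20:19265173-19265292, plus strand: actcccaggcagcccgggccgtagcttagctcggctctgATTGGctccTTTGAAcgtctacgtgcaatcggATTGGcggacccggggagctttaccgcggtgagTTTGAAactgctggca
Cdc20, chr5:137255800-137255919, minus strand: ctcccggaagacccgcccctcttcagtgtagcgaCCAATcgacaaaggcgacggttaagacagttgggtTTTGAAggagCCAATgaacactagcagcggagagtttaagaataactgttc
Hmmr, chr10:25665216-25665335, minus strand: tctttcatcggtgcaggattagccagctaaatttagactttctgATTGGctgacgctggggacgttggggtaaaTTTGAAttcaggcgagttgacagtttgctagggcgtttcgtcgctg
Mcm5, chr19:13488693-13488812, plus strand: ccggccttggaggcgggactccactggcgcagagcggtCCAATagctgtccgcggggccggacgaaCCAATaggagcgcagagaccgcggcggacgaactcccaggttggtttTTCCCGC
Mcm6, chr13:42404353-42404472, minus strand: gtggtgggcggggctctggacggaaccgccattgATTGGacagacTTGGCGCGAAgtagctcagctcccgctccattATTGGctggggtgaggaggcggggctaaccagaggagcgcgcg
Mcm7, chr12:22163179-22163298, minus strand: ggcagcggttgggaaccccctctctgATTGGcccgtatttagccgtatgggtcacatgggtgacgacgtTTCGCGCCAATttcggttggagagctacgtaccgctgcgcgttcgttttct
Tyms, chr9:120776084-120776203, minus strand: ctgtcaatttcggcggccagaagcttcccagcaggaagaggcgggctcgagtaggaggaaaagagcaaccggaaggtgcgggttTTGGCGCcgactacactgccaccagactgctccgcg
Mki67, Cdk1, Cdc20 and Hmmr each showed a CHR and a CCAAT box, the latter as ATTGG where it lies on the other strand. Mki67 also showed an E2F word (TTGGCGC), and Cdk1 held E2F words further upstream in the 250 bases searched. The 4 S phase promoters showed an E2F word and no CHR. Other genes of the list differed: in the 250 bases searched, Ccnb1 had no CHR, Pcna had no E2F word, and Mcm2 had a CHR beside an E2F word. A match describes the letters only, and no binding was measured.

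The libraries held between 12699204 and 23397754 counts on genes, and 2 of the animals stood apart before any comparison was made. Sham replicate 5 exceeded all other sham libraries of its zone in 43, 45 and 43 of the 45 genes in the infarct, border and remote positions. Its Mki67 level, given like all levels in CPM (the count of a gene scaled to a common library total), was 110.2, 118.7 and 122.4, whereas the other 15 sham libraries lay between 11.3 and 20.8. The same animal was high in other cell type markers: its lymphoid score, the mean log2(CPM + 0.1) over 8 genes, was 3.85 to 4.48 against -1.39 to 0.55 in the other shams, with all 8 genes above them. Cd3e, a subunit of the T cell receptor complex, reached 93.9 to 123.3 CPM in it and at most 7.24 in the 51 libraries of the other animals. Its macrophage score was 7.13 to 7.49 against 4.06 to 5.07 (7 of 8 genes above the other shams), and its summed cardiomyocyte transcripts were 16345 to 25967 CPM against 46827 to 60708. Its fibroblast score of 7.85 to 8.07 lay largely within the other shams (7.12 to 8.04), with 1 of 8 genes above them. That gene was Postn, at 294 to 330 CPM against 16.0 to 60.5 CPM. The second animal was cell sheet replicate 1, whose border library held 132 CPM of cardiomyocyte transcripts where the other 5 border libraries of treated hearts held 7186 to 23973. Results are given below with and without each of these animals. In bulk tissue, more dividing cells and more RNA per dividing cell cannot be told apart, and this holds for every level given here.

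**Figure D1:**
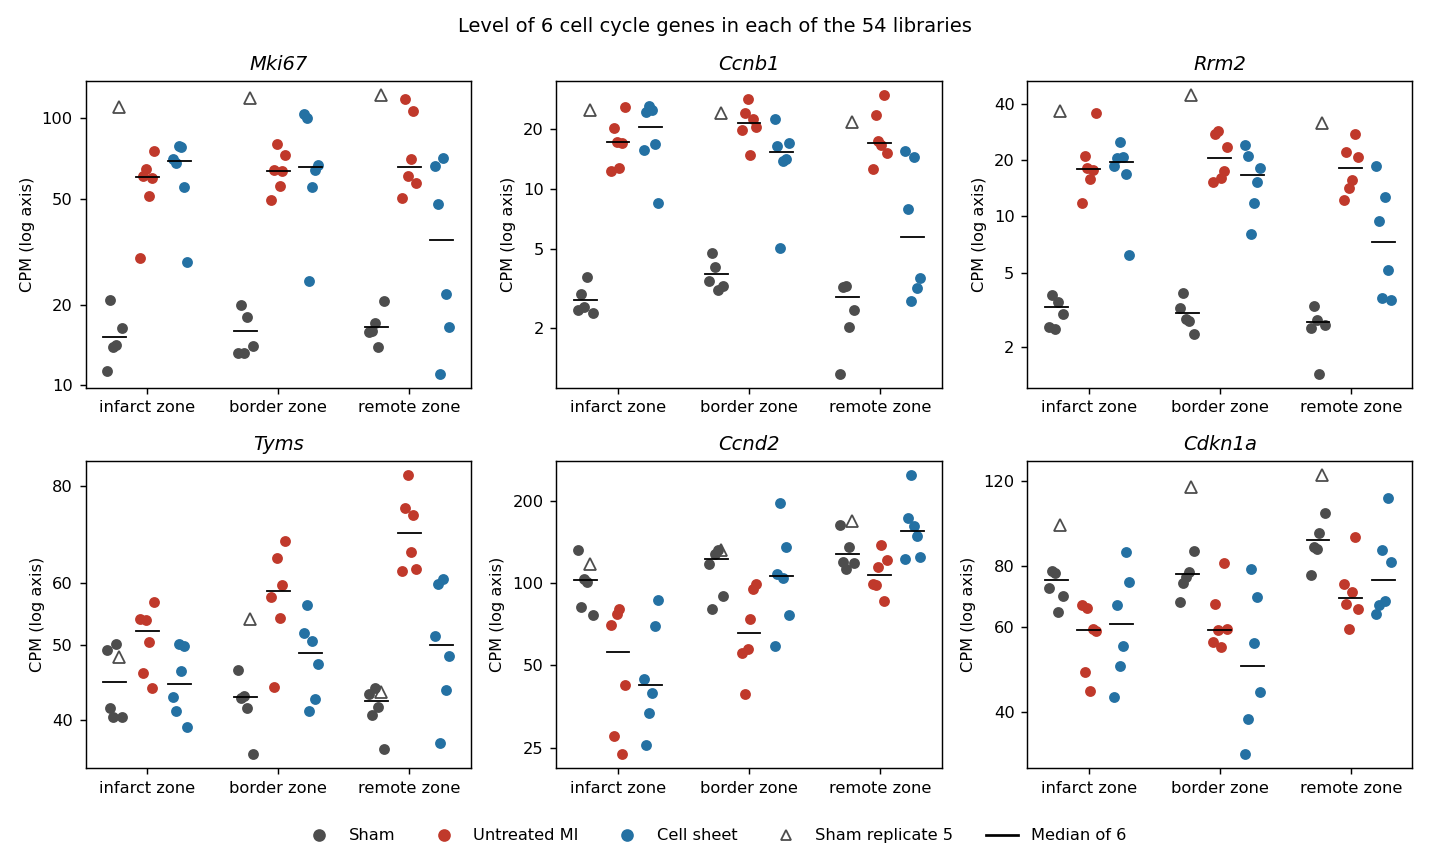
Level of Mki67, Ccnb1, Rrm2, Tyms, Ccnd2 and Cdkn1a in all 54 libraries, in CPM on a log axis, by zone and treatment. Each point is 1 library, the bar is the median of 6, and the open triangle is sham replicate 5, which lay at 110.2 to 122.4 CPM for Mki67 while the other sham libraries lay at 11.3 to 20.8 CPM.

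The first comparison asked how untreated MI differed from sham surgery in each zone. In the infarct zone 17 of the 45 genes rose and 2 fell (edgeR's quasi-likelihood test, Benjamini-Hochberg adjusted p under 0.05 over all genes tested), where 22.7% of all genes rose, 27.2% fell and 49.9% were called in either direction. The border zone gave 22 rises and 2 falls, beside 18.4% and 23.2% of all genes (41.7% in either direction). In the remote zone 23 rose and 1 fell, beside 11.7% and 14.2% of all genes (25.8% in either direction). The median log2 fold change of the 45 genes was 1.14 in infarct, 1.24 in border and 1.38 in remote tissue, while that of all genes was -0.02, -0.02 and -0.04. The log2 fold change was above 0 in 41, 42 and 43 of the 45. The 3 zones come from the same hearts and are not independent of each other.

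These counts depended on sham replicate 5. Without it 39 genes rose and 2 fell in the infarct zone, 41 rose and 2 fell in the border zone, and 42 rose and 1 fell in the remote zone. The median log2 fold changes became 1.91, 2.18 and 2.21, and the share of all genes called rose as well, to 64.8%, 60.8% and 46.5%. Sham replicate 5 lay above all 6 MI libraries in 25, 21 and 13 of the 45 genes, whereas the other 5 shams lay below all 6 MI libraries in 38 of 45 in each zone. How many of all genes were placed in these ways was not counted, so both counts stand without a background. Leaving out any other animal moved the infarct count of 19 genes called to as few as 11 (12 when sham replicate 1, 3 or 4 was left out, 11 for sham replicate 2 or 6, and 11 for MI replicate 6). The border count of 24 fell to 14 for sham replicate 1 or 2, to 12 for sham replicate 3 or 6, to 11 for sham replicate 4, to 14 for MI replicate 2, to 12 for MI replicate 3 and to 15 for MI replicate 6. The remote count of 24 fell to 15 without sham replicate 4. With all 12 libraries, the MI and sham levels of 1, 2 and 4 of the 45 genes did not overlap. These were Kif20a in the infarct zone, Prc1 and Anln in the border zone, and Tyms, Ccnb2, Anln and Ect2 in the remote zone. The share of all genes without overlap was not computed. The shares of all genes called (49.9%, 41.7% and 25.8%) are a different measure, against which these counts cannot be read.

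Among the mitotic genes, 5 of cytokinesis and the central spindle rose in all 3 zones. Anln encodes anillin, the scaffold of the contractile ring. Its infarct zone levels (lowest, median and highest library) were 2.23, 2.71 and 5.90 CPM in the other 5 shams and 11.6, 21.4 and 27.4 CPM in untreated MI, with sham replicate 5 at 13.0 CPM. Only that sham library reached the MI range. The log2 fold change was 1.97 in the infarct zone (SE 0.42, adjusted p = 0.00314), 2.10 in the border zone (SE 0.31, adjusted p = 0.000747) and 2.45 in the remote zone (SE 0.39, adjusted p = 0.00147). In the last of these, MI libraries held 17.3, 29.1 and 50.5 CPM against at most 14.0 CPM in any sham, and the groups did not overlap. Kif20a, a kinesin of the central spindle, held 4.73, 5.49 and 8.48 CPM in the other 5 infarct position shams, 12.4 CPM in sham replicate 5 and 14.1, 16.5 and 20.7 CPM in MI. Every MI library was above every sham, with a log2 fold change of 1.21 (SE 0.23, adjusted p = 0.00206). Its rise was 1.32 (SE 0.31, adjusted p = 0.0072) in the border and 1.53 (SE 0.34, adjusted p = 0.00646) in the remote zone. Prc1, which bundles the microtubules of the midzone, rose by 1.70, 1.86 and 1.95 on the log2 scale (adjusted p = 0.00842, 0.00249 and 0.00382). Ect2, the exchange factor that activates RhoA at the cell equator, rose by 1.56, 1.76 and 2.15 (adjusted p = 0.0165, 0.00878 and 0.00297), and Kif23, a centralspindlin motor, by 1.32, 1.59 and 1.96 (adjusted p = 0.0482, 0.0152 and 0.00968).

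Kinases and cyclins of mitotic entry rose in some zones and missed the test in others with every sham included. Cdk1, the kinase that starts mitosis, held 3.16, 4.31 and 5.39 CPM in the other 5 infarct position shams and 14.4, 23.5 and 35.9 CPM in MI. Sham replicate 5, at 25.5 CPM, lay above the MI median. Cdk1 rose by 1.59 (SE 0.50, adjusted p = 0.0187), 1.85 (SE 0.49, adjusted p = 0.0122) and 2.06 (SE 0.53, adjusted p = 0.0136) on the log2 scale from infarct to remote zone. Ccnb1, its cyclin B1 partner, held 3.10, 3.45 and 4.76 CPM in the other 5 border shams and 14.9, 21.6 and 28.3 CPM in MI, with sham replicate 5 at 24.1 CPM. It rose in the border zone (log2 fold change 1.59, SE 0.51, adjusted p = 0.0253) and missed the threshold in the infarct (1.40, adjusted p = 0.0700) and remote zones (1.73, adjusted p = 0.0542). Ccnb2 rose in all 3 zones (1.47, 1.63 and 2.06), and Ccna2 in the remote zone alone (1.60, adjusted p = 0.0389). Aurka, a kinase of the spindle poles, rose in the infarct and border zones (1.34 in each), while Aurkb and Plk1 passed the test in no zone. Ttk, the spindle checkpoint kinase, rose by 1.70, 1.77 and 1.98. Pbk, a mitotic kinase, rose by 1.22, 1.65 and 2.05.

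Mki67 and Top2a are the proliferation markers most often stained in tissue, and for both a single animal decided whether they passed. Mki67 in the infarct zone held 11.3, 14.1 and 20.8 CPM in the other 5 shams, 110.2 CPM in sham replicate 5 and 30.1, 60.1 and 75.6 CPM in MI. The 6 MI libraries lay between 5 shams and the sixth. With all shams the log2 fold change was 0.86 (SE 0.55, adjusted p = 0.210), 0.96 (SE 0.54, adjusted p = 0.168) and 1.15 (SE 0.55, adjusted p = 0.136) in the 3 zones, and no zone passed the test. Without sham replicate 5 it was 1.90 (SE 0.22, adjusted p = 4.63e-05), 2.04 (SE 0.16, adjusted p = 1.17e-05) and 2.22 (SE 0.22, adjusted p = 1.29e-05). Top2a, a DNA topoisomerase, held 9.08, 11.3 and 12.2 CPM in the other 5 remote shams, 75.3 CPM in sham replicate 5 and 34.0, 51.2 and 83.2 CPM in MI. Its remote log2 fold change was 1.39 (adjusted p = 0.0715) with and 2.42 without that animal.

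Of the other mitotic genes, Cdc20, the activator of the anaphase-promoting complex, rose in each zone (1.23, 1.35 and 1.65), as did Hmmr (1.14, 1.52 and 1.67), Birc5 (1.48, 1.52 and 1.71), Cenpf (1.27, 1.39 and 1.79) and Tpx2 (1.38, 1.38 and 1.56). Cenpe, Nusap1 and Bub1 rose in the border and remote zones, and Kif11, Bub1b and Ube2c in the remote zone alone. Counted together, 15, 19 and 21 of the 27 mitotic genes rose in the infarct, border and remote zones and none fell. Of all genes 22.7%, 18.4% and 11.7% rose. The median log2 fold changes of the 27 were 1.23, 1.47 and 1.65. When sham replicate 5 was left out, all 27 rose in each zone, with medians of 2.20, 2.38 and 2.51. In those fits 64.8%, 60.8% and 46.5% of all genes were called in either direction. Sham replicate 5 exceeded all 6 MI libraries in 12, 8 and 1 of the 27, and the other 5 shams lay below all 6 MI libraries in all 27. The shares of all genes placed in these ways were not computed.

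Of the S phase genes few passed with all shams: 2, 3 and 2 of the 15 rose in the infarct, border and remote zones. Of all genes 22.7%, 18.4% and 11.7% rose, shares that these counts do not clearly exceed. The median log2 fold changes of the 15 were 0.70, 0.55 and 0.48. E2f1, the transcription factor of S phase entry, rose in all 3 zones by 1.42 (SE 0.42, adjusted p = 0.0153), 1.13 (SE 0.37, adjusted p = 0.0288) and 1.28 (SE 0.38, adjusted p = 0.0255). Gins2, a subunit of the replicative helicase, rose in the infarct zone (0.92, SE 0.34, adjusted p = 0.0399), and Chek1, the checkpoint kinase of stalled replication, in the border zone (0.90, adjusted p = 0.0464). For Tyms, thymidylate synthase, sham replicate 5 lay within the range of the other shams in the infarct and remote positions and above it in the border position (53.997 CPM against 36.2 to 46.4). The remote zone levels of Tyms were 36.7, 42.4 and 43.9 CPM over all 6 shams and 62.2, 69.5 and 82.5 CPM in MI, without overlap, and it rose by 0.75 (SE 0.09, adjusted p = 0.000583). The rise was 0.40 (SE 0.12, adjusted p = 0.0187) in the border zone, and in the infarct zone the difference was 0.17 (adjusted p = 0.136).

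Sham replicate 5 lay above all 6 MI libraries in 10 of the 15 S phase genes in each zone, a count not made over all genes. Rrm2, a subunit of ribonucleotide reductase, held 2.48, 3.00 and 3.78 CPM in the other 5 infarct position shams, 37.0 CPM in sham replicate 5 and 11.8, 18.03 and 35.8 CPM in MI. That sham library exceeded every MI library. The log2 fold change of Rrm2 was 1.18 (adjusted p = 0.173) with all shams and 2.71 (SE 0.27, adjusted p = 2.3e-05) without it. Mcm5, part of the MCM helicase, held 6.10, 9.86 and 9.90 CPM in the other 5, 58.2 CPM in sham replicate 5 and 14.3, 20.4 and 32.7 CPM in MI. Its log2 fold change in the infarct, border and remote zones was 0.32, 0.24 and 0.31 with all shams (adjusted p = 0.619, 0.739 and 0.651) and 1.29, 1.28 and 1.14 without. Mcm6, another subunit of that helicase, had a log2 fold change of 1.46 in each of the 3 zones without sham replicate 5. Pcna, the sliding clamp of the DNA polymerases, held 54.001, 59.2 and 69.6 CPM in the other 5 infarct position shams and 55.3, 59.4 and 72.4 CPM in MI, so the ranges overlapped. Leaving out sham replicate 5, 12, 14 and 14 of the 15 S phase genes rose, with medians of 1.20, 1.04 and 1.03. In those fits 64.8%, 60.8% and 46.5% of all genes were called in either direction. Ccne2, a cyclin E, passed the test in no zone in either fit, and Pcna (0.00, adjusted p = 0.988) and Tyms (0.20, adjusted p = 0.0810) did not pass it in the infarct zone without that sham either.

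Ccnd2 and Cdkn1a moved the other way. Ccnd2, a D-type cyclin, held 76.2, 102.3 and 132 CPM in the 6 infarct position shams and 23.7, 56.2 and 80.1 CPM in MI. The ranges overlapped at their ends, and Ccnd2 fell by 0.94 on the log2 scale (SE 0.30, adjusted p = 0.0217). It fell by 0.69 (SE 0.22, adjusted p = 0.0256) in the border zone, and the remote difference was -0.32 (adjusted p = 0.105). Cdkn1a held 76.9, 90.9 and 123 CPM in the remote shams and 59.4, 68.7 and 91.9 CPM in MI. Most MI libraries were below most shams but the ranges overlapped, and Cdkn1a fell by 0.43 (SE 0.13, adjusted p = 0.0179) in infarct tissue, by 0.40 (SE 0.14, adjusted p = 0.0398) in border tissue and by 0.42 (SE 0.13, adjusted p = 0.0309) in remote tissue. With library size alone in place of TMM factors the infarct values were -0.69 for Ccnd2 (adjusted p = 0.0618) and -0.17 for Cdkn1a (adjusted p = 0.319), and neither gene passed the test. That setting moved the median of all genes by 0.24 on the log2 scale in the infarct zone. Ccnd1, the other D-type cyclin, held 124, 135 and 205 CPM in the infarct position shams and 109.99, 131 and 153 CPM in MI, and passed the test in no zone.

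**Figure D2:**
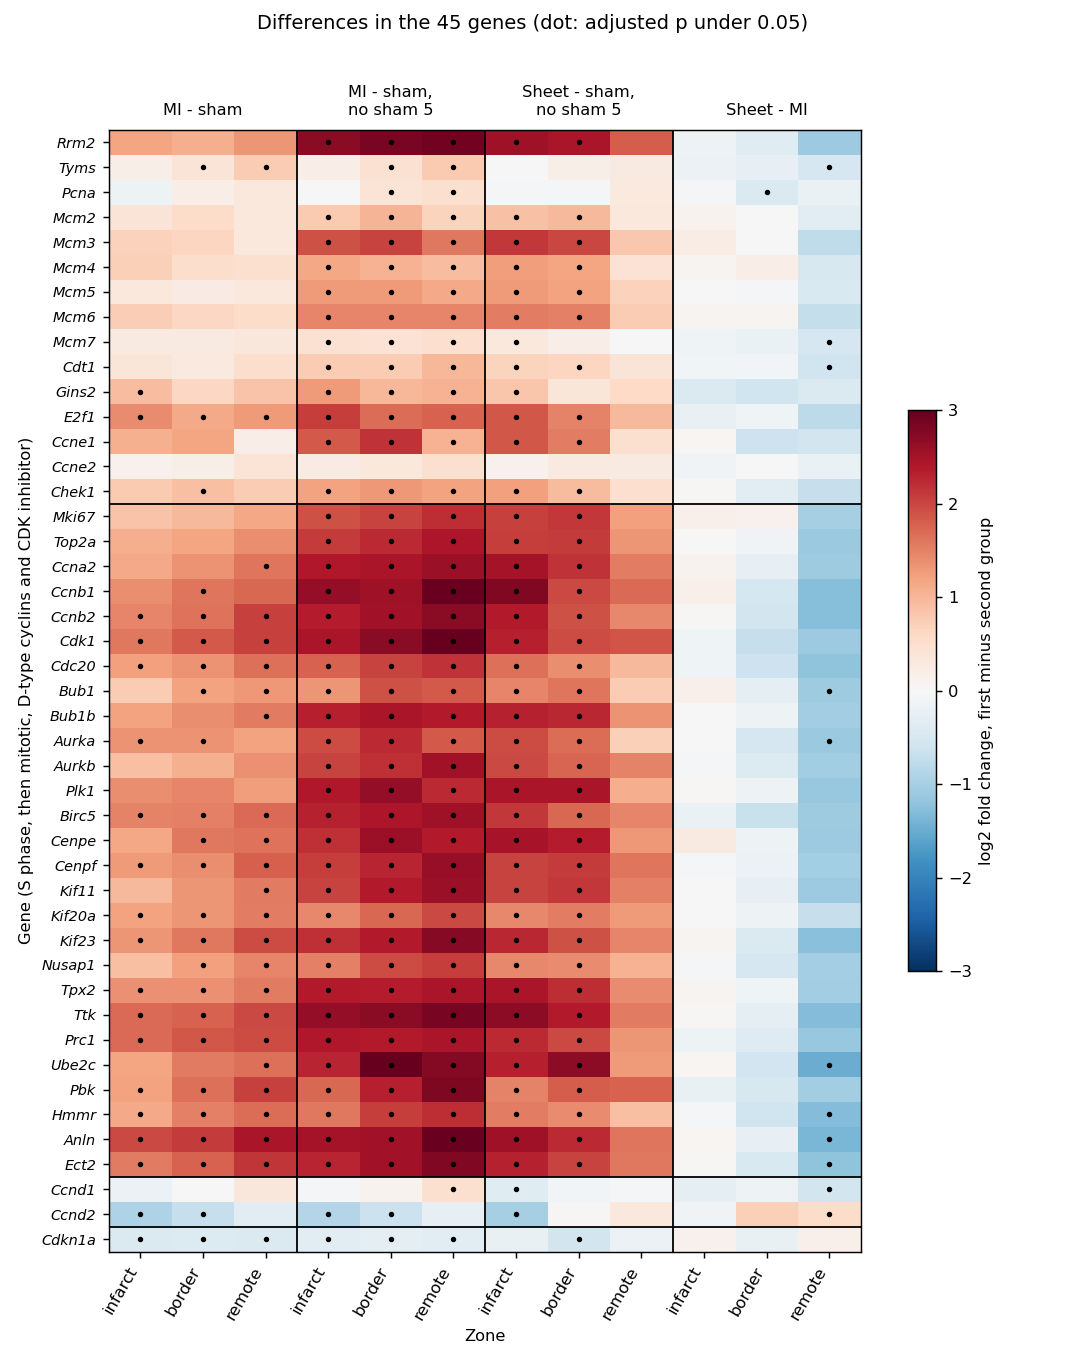
Log2 fold change of the 45 genes (rows, grouped as S phase, mitotic, D-type cyclin and inhibitor) in the 3 zones for MI against sham, MI against sham and cell sheet against sham without sham replicate 5, and cell sheet against MI. A dot marks adjusted p under 0.05: 17 rises and 2 falls in the infarct zone of MI against sham became 39 rises and 2 falls without sham replicate 5.

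S phase and mitotic genes can be set against each other within a library, as the mean log2(CPM + 0.1) of the 15 minus that of the 27. As CPM are not scaled by gene length, only differences of this value between libraries can be read. It averaged 0.81 ± 0.39 (SD, n = 6) in infarct position shams, 0.78 ± 0.31 in border and 0.74 ± 0.33 in remote shams. In untreated MI it was -0.04 ± 0.21, -0.26 ± 0.25 and -0.44 ± 0.32, and the highest of the 18 MI libraries (0.18) lay just above the lowest sham library (0.17). Sham replicate 5 had the lowest sham values (0.17 to 0.24), with both sets of genes high. The mitotic genes thus stood higher relative to the S phase genes in most MI libraries than in the shams. In treated hearts the value was -0.07 ± 0.26 in the infarct and -0.03 ± 0.32 in the border zone, near untreated MI, and 0.33 ± 0.66 in the remote zone, where the 6 libraries spread from -0.40 to 1.11. No test was made of these means, since the genes were chosen with results of these data known.

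Markers of other cell types moved with untreated MI in the same libraries. In the infarct zone all 8 cardiomyocyte markers fell (median log2 fold change -1.85), 4 of 8 macrophage markers rose (median 1.51), 6 of 8 fibroblast and myofibroblast markers rose (median 2.37) and 3 of 4 neutrophil markers tested rose. Border tissue showed the same, as 8 cardiomyocyte markers fell (median -1.56), 5 macrophage (median 1.62) and 7 fibroblast markers rose (median 2.40). In the remote zone 5 cardiomyocyte markers fell (median -0.78), 2 macrophage markers (median 0.77) and 7 fibroblast markers (median 1.37) rose. The part of cell composition in the rise of the cell cycle genes was not tested.

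Genes of the wider cell cycle machinery were counted from lists that exclude the 45, to be read against 22.7% of all genes higher and 27.2% lower in infarct tissue, 18.4% and 23.2% in border tissue and 11.7% and 14.2% in remote tissue. Of 26 kinetochore and spindle genes, 9 rose and 1 fell in the infarct zone, 11 rose and 1 fell in the border zone and 17 rose in the remote zone, with medians of 1.10, 1.32 and 1.47. Ckap2, a spindle protein, rose by 1.72 in the border and 2.05 (SE 0.36, adjusted p = 0.00226) in the remote zone, and Cenpi, a centromere protein, by 1.67 (SE 0.40, adjusted p = 0.00532) in the infarct zone. Of 27 genes of replication licensing and synthesis, 2 rose and 2 fell in the infarct, 4 rose and 1 fell in the border and 6 rose in the remote zone (medians 0.49, 0.57 and 0.68). Tk1, thymidine kinase, rose in all 3 zones by 0.94, 1.04 and 1.03, while Dut, which removes dUTP, fell in the infarct zone by 0.98 (SE 0.16, adjusted p = 0.000875). Of 12 cohesin and condensin genes, 2, 1 and 4 rose and 0, 0 and 1 fell. A list of 12 held cell cycle kinases and phosphatases from G1 to mitosis, and the D-type cyclin Ccnd3. Of these, 6, 5 and 4 rose and 2, 1 and 0 fell. Mastl, the Greatwall kinase, rose by 1.67 (adjusted p = 0.00794) in the border and by 1.75 (SE 0.37, adjusted p = 0.00525) in the remote zone. Of 17 transcriptional regulators of the cycle, 2, 3 and 2 rose and 2, 2 and 1 fell. Foxm1, the activator of mitotic genes, rose in the border (1.21, adjusted p = 0.0348) and remote zones (1.21, SE 0.34, adjusted p = 0.0212) and missed the threshold in the infarct zone (1.07, adjusted p = 0.0529). Mybl2, which encodes B-MYB, was at 1.07, 1.31 and 0.95 and passed in none. Leaving out sham replicate 5, the kinetochore and spindle list gave 25 rises in each zone, and the licensing list 21, 24 and 21. In those fits 64.8%, 60.8% and 46.5% of all genes were called in either direction.

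The second comparison asked how the cell sheet-treated hearts differed from untreated MI, with the same MI libraries as above. In the infarct zone 0 of the 45 genes and 0 of the 16196 genes tested passed edgeR's test (0%). At an unadjusted p under 0.05 there were 1 of the 45 and 1341 of all genes, and DESeq2 called 59 genes, none of them among the 45. The median log2 fold change of the 45 was 0.01. Mki67 held 29.0, 69.2 and 78.8 CPM in treated and 30.1, 60.1 and 75.6 CPM in untreated infarct zones, with wide overlap. The lowest treated library was replicate 6, in Mki67 (29.0 CPM) as in Top2a (15.4 CPM). Ccnd1 (-0.30, SE 0.13, adjusted p = 0.572), Tyms (-0.18, SE 0.09, adjusted p = 0.626) and Gins2 (-0.43, SE 0.22, adjusted p = 0.648) had the smallest p-values. Ccnd1 held 85.2, 105 and 138 CPM in treated and 109.99, 131 and 153 CPM in untreated hearts.

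In the border zone Pcna alone passed, with 1 of the 45 genes lower and none higher, beside 9.48% of all genes lower and 8.47% higher (18% in either direction). Border Pcna was 67.3, 55.4, 42.5, 47.3, 52.1 and 50.3 CPM in treated replicates 1 to 6 and 68.6, 71.9, 77.6, 70.9, 70.4 and 71.0 CPM in untreated replicates 1 to 6. Treated replicate 1 lay just under the lowest untreated library and the other 5 well under it, and Pcna fell by 0.43 (SE 0.10, adjusted p = 0.0122). Cdc20 (-0.61, SE 0.21, adjusted p = 0.0588) and Hmmr (-0.61, SE 0.22, adjusted p = 0.0718) missed the threshold. Border Cdc20 held 7.32, 15.02 and 19.8 CPM in treated and 18.7, 23.8 and 27.3 CPM in untreated hearts, and border Hmmr 8.05, 11.7 and 18.9 against 14.8, 20.1 and 25.7 CPM. Of the treated libraries, replicate 1 for Cdc20 and replicates 1 and 2 for Hmmr reached the MI range. Mki67 (0.12) and Top2a (-0.10) were close to 0. Without treated replicate 1, whose border library lacked cardiomyocyte transcripts, 5 genes passed: Pcna (-0.51, adjusted p = 0.00231), Cdk1 (-0.89, adjusted p = 0.0358), Cdc20 (-0.71, adjusted p = 0.0349) and Hmmr (-0.75, adjusted p = 0.0273) were lower, and Ccnd2 (0.85, adjusted p = 0.0492) higher. Without treated replicate 3 the count was 2. In the fits without treated replicate 1 and without treated replicate 3, 18.8% and 18.5% of all genes were called. In the border zone 5 of 8 mural cell markers and 3 of 6 adipocyte markers tested were higher in treated hearts and 1 macrophage marker was lower, and their part in these values was not tested. With the infarct and border libraries of each heart summed, Pcna (-0.23) and Gins2 (-0.52) fell and none rose, beside 6.09% of all genes lower and 6.02% higher (12.1% in either direction), and the median of the 45 was -0.13.

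In the remote zone, away from the sheet, 10 of the 45 genes fell and 1 rose, beside 6.79% of all genes that fell and 10.3% that rose (17.1% in either direction). The median log2 fold change of the 45 was -1.04, and 38 of them had an unadjusted p under 0.05, beside 5365 of all 15374 genes. Mcm7, a subunit of the MCM helicase, held 20.001, 23.5 and 28.0 CPM in treated and 31.1, 33.0 and 37.7 CPM in untreated hearts, without overlap. It fell by 0.50 (SE 0.11, adjusted p = 0.0115), close to the other 5 shams (20.3 to 26.7 CPM). Tyms was 51.3, 59.8, 37.4, 60.8, 43.7 and 48.4 CPM in treated replicates 1 to 6, all under the lowest untreated library at 62.2 CPM, and fell by 0.49 (SE 0.12, adjusted p = 0.0211). Cdt1, the licensing factor that loads the MCM helicase, held 3.05, 5.42 and 6.42 CPM against 6.79, 7.17 and 9.66 CPM, again without overlap, and fell by 0.60 (SE 0.19, adjusted p = 0.0414). Those 3 were the S phase genes that fell, out of 15 with a median of -0.50.

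Of the 27 mitotic genes 6 fell, beside 6.79% of all genes, with a median of -1.09 over all 27. Hmmr, a spindle protein and hyaluronan receptor, held 15.2, 8.84, 4.75, 14.2, 4.98 and 4.75 CPM in treated replicates 1 to 6 and 13.4, 21.9 and 30.5 CPM (lowest, median, highest) in untreated MI. Replicates 1 and 4 reached the MI range and the other 4 did not. It fell by 1.30 (SE 0.33, adjusted p = 0.0229). Ube2c, the ubiquitin-conjugating enzyme of mitotic exit, was 9.34, 6.61, 1.88, 8.40, 3.18 and 1.61 CPM in treated replicates 1 to 6 and at least 10.04 CPM in untreated MI, and fell by 1.49 (SE 0.41, adjusted p = 0.0284). Its groups did not overlap. Ect2, at 3.64, 6.96 and 14.04 CPM in treated and 14.05, 16.9 and 28.9 CPM in untreated hearts, fell by 1.20 (adjusted p = 0.0289), with the highest treated beside the lowest untreated library. Bub1 (-1.07, adjusted p = 0.0329), Aurka (-1.12, adjusted p = 0.0374) and Anln (-1.37, adjusted p = 0.0451) also fell. With normalization factors of these 12 libraries alone, Tyms, Mcm7, Cdt1 and Ube2c were again without overlap while Ect2, and Pcna in the border zone, overlapped. The share of all genes without overlap was not computed here either, so these 4 of the 45 stand without a background. Mki67 was 66.5, 47.9, 11.03, 71.2, 22.02 and 16.5 CPM in treated replicates 1 to 6 and 50.4, 118, 61.1, 70.6, 107 and 57.4 CPM in untreated MI. Its difference of -0.99 (SE 0.42, adjusted p = 0.115) did not pass, and neither did those of Top2a (-1.11, adjusted p = 0.0920), Cdk1 (-1.09, adjusted p = 0.108), Ccnb1 (-1.28, adjusted p = 0.0559) or Rrm2 (-1.09, adjusted p = 0.0696). Of the cyclins of G1, Ccnd1 fell by 0.54 (SE 0.15, adjusted p = 0.0284), with 89.6, 129.7 and 169.6 CPM against 154, 172 and 229 CPM, and Ccnd2 rose by 0.56 (SE 0.17, adjusted p = 0.0403), with 122, 155 and 248 CPM against 85.8, 107 and 138 CPM. Both pairs of ranges overlapped.

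The treated remote libraries differed widely among themselves. The mean log2(CPM + 0.1) of the 27 mitotic genes, with an SD of 1.04 over the 6 treated and 0.45 over the 6 untreated hearts, was 4.12, 3.50, 1.90, 4.04, 2.27 and 1.98 in treated replicates 1 to 6. Untreated MI lay between 3.79 and 4.94 and the other 5 shams between 1.73 and 2.05. Replicates 1 and 4 were therefore within the MI range, replicates 3 and 6 within the sham range and replicates 2 and 5 between them. Replicates 1, 2 and 4 were the 3 highest treated libraries in 40 of the 45 genes, all 27 mitotic genes among them. Treated replicates 2, 3, 5 and 6 were below all 6 MI libraries in 30, 41, 40 and 39 of the 45 genes, and replicates 1 and 4 in 6 and 8. Neither this nor the order of the treated libraries was counted over all genes, so whether they are particular to the 45 was not tested.

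**Figure D3:**
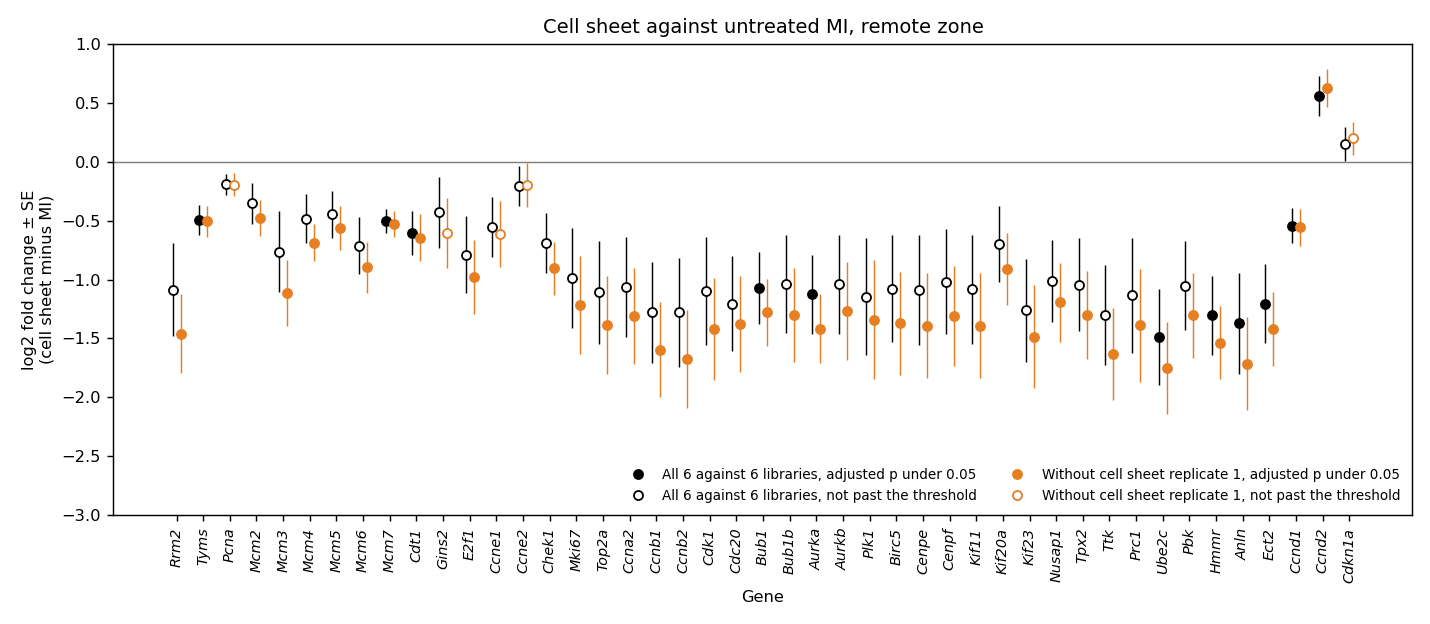
Log2 fold change (± SE) of the 45 genes for cell sheet-treated against untreated MI in the remote zone, with all 12 libraries and without treated replicate 1. The values move down without that animal, from a median of -1.04 to -1.30, and Ccnd2 stays above 0 in both.

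The remote counts depended on single animals. Without treated replicate 1, 39 of the 45 genes fell and Ccnd2 rose, where 41.6% of all genes passed. All 27 mitotic genes (median -1.39) and 11 of 15 S phase genes (median -0.61) were then lower, with Mki67 at -1.21 (SE 0.42, adjusted p = 0.0320), Rrm2 at -1.46 (SE 0.33, adjusted p = 0.00392) and Ccnb1 at -1.59 (SE 0.40, adjusted p = 0.00681). Mcm6, at -0.71 (adjusted p = 0.0574) with all 12 libraries, was at -0.90 (adjusted p = 0.00544). Pcna, Gins2, Ccne1, Ccne2 and Cdkn1a did not pass. Leaving out other animals gave smaller counts than the 11 genes called with all 12: 6 for MI replicate 2 or 3, 5 for MI replicate 4, 1 for MI replicate 5, 2 for treated replicate 2 or 3, 1 for treated replicate 5 and 5 for treated replicate 6. DESeq2 called 26 of the 45.

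**Figure D4:**
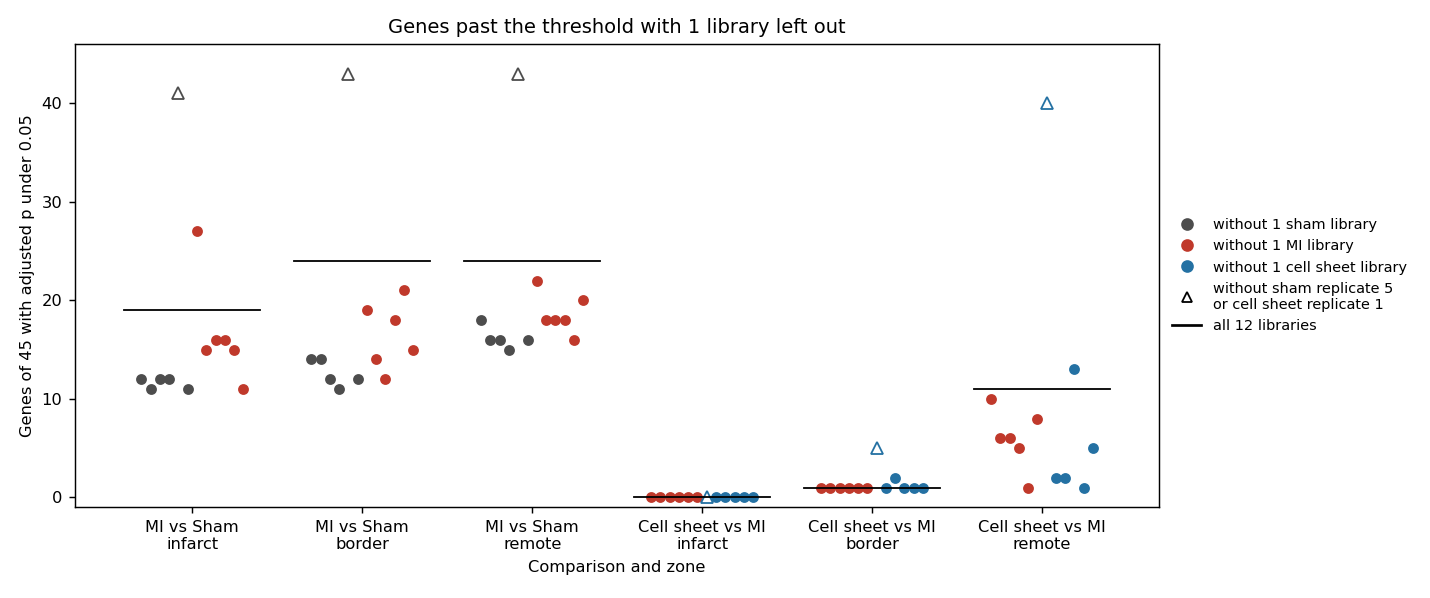
Number of the 45 genes called (adjusted p under 0.05) in each comparison of MI with sham and of cell sheet with MI, with each library left out in turn (points) and with all 12 libraries (bar). For cell sheet against MI in the remote zone the counts run from 1 to 40 around 11, and for MI against sham they are highest, at 41 to 43, without sham replicate 5.

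Cell type markers of the remote zone varied beside these genes. Macrophage scores in treated replicates 1 to 6 were 6.83, 4.48, 4.57, 5.45, 4.39 and 4.57, and 5.42 to 6.92 in untreated MI. The higher scores were those of replicates 1 and 4, the libraries with the highest mitotic means (4.12 and 4.04). Replicate 2, with the next mitotic mean (3.50), did not share this. Its macrophage score of 4.48 lay among those of replicates 3, 5 and 6. Fibroblast scores were 10.14, 7.62, 8.23, 8.50, 7.44 and 7.45 in treated replicates 1 to 6 and 8.13 to 9.67 in untreated MI, so that replicate 1 was the highest library of both groups. Cardiomyocyte scores were 10.89, 12.52, 11.65, 12.04, 12.50 and 12.33, against 11.12 to 11.93. By edgeR 1 of 8 macrophage markers (median -0.89), 1 of 8 fibroblast markers (median -0.46) and 2 of 3 neutrophil markers fell, while 1 of 8 cardiomyocyte (median 0.46) and 5 of 8 mural cell markers (median 0.63) rose. Their part in the lower cell cycle transcripts was not tested.

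Genes of the wider machinery also fell in the remote zone. Of 26 kinetochore and spindle genes 8 fell (median -1.07), Cenpk by 1.496 (SE 0.32, adjusted p = 0.0120). Of 27 licensing and synthesis genes 7 fell (median -0.52), among them Gmnn, which encodes the CDT1 inhibitor geminin, by 1.15 (SE 0.34, adjusted p = 0.0354). Of 12 cohesin and condensin genes 4 fell and 1 rose, and of the 12 kinases, phosphatases and Ccnd3 1 fell. Foxm1 was at -0.78 (adjusted p = 0.0770). These counts stand beside 6.79% of all genes that fell and 10.3% that rose. None of these lists held a call in the infarct zone, where no gene passed. In the border zone 3 of the 27 licensing genes fell, beside 9.48% of all genes. Rfc4, a clamp loader subunit, fell by 0.84 (SE 0.15, adjusted p = 0.00348) and Gins4 by 0.67. Without treated replicate 1, 23 of the 26 kinetochore and spindle genes and 11 of the 27 licensing genes fell in the remote zone. In that fit 41.6% of all genes were called in either direction, a share that the licensing count does not clearly exceed.

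The third comparison set treated hearts against sham hearts. It shares its libraries with both comparisons above, so the values are given for themselves. In the infarct zone 23 of the 45 genes rose and 2 fell (median 1.16), beside 28.6% of all genes higher and 29.2% lower (57.9% in either direction). Of those that rose 4 were S phase and 19 mitotic genes. Kif20a held 9.61, 18.2 and 20.1 CPM in treated hearts, of which the lowest lay between the other 5 shams (at most 8.48 CPM) and sham replicate 5 (12.4 CPM), and rose by 1.26 (SE 0.24, adjusted p = 0.00128). Anln (2.09, SE 0.44, adjusted p = 0.00199) and Hmmr (1.16, SE 0.30, adjusted p = 0.0070) rose as well, while Ccnd2 fell by 1.02 (SE 0.27, adjusted p = 0.0077) and Ccnd1 by 0.45 (adjusted p = 0.0165). In the border zone 6 genes rose and 1 fell (median 0.90), beside 20.4% higher and 23.2% lower (43.6% in either direction). Border Anln held 7.18, 22.6 and 32.2 CPM in treated hearts against 3.52, 4.25 and 6.26 CPM in the other 5 shams and 13.2 CPM in sham replicate 5, and rose by 1.84 (SE 0.39, adjusted p = 0.00271). Prc1 rose by 1.47 (SE 0.38, adjusted p = 0.00815) and Kif20a by 1.15 (SE 0.30, adjusted p = 0.00867), and Cdkn1a fell by 0.65 (SE 0.21, adjusted p = 0.0255).

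In the remote zone of treated hearts 0 of the 45 genes passed against sham by edgeR, 0 at an unadjusted p under 0.05 and 0 by DESeq2, with a median of 0.33. Few genes of any kind passed there (0.00660% by edgeR, 1 of 15157, and 179 genes by DESeq2), and 1520 had an unadjusted p under 0.05. Tyms (0.26, adjusted p = 0.509), Anln (1.07, adjusted p = 0.528) and Ect2 (0.94, adjusted p = 0.552) had the smallest p-values. Remote Anln ranged from 4.75 to 24.9 CPM in treated hearts, which spans from the other 5 shams (3.12 to 5.06 CPM) to the MI range. Without sham replicate 5 the counts were 39 higher and 2 lower in the infarct, 37 higher and 1 lower in the border and still 0 in the remote zone (medians 1.96, 1.73 and 1.10), where 70.0%, 61.6% and 0.111% of all genes passed. Without treated replicate 1 the 3 counts of genes called were 19, 4 and 0. That no gene passed in the remote zone does not show that treated and sham hearts were alike, given the spread of the 6 treated libraries.

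The zones of a heart were compared within animals. In untreated MI 9 of the 45 genes were lower in the infarct than in the remote zone and none was higher, beside 18.6% of all genes lower (37.8% in either direction), which is a share near that of all genes. Ccnd2 was lower by 1.10 (SE 0.27, adjusted p = 0.0107), Kif23 by 0.60, Anln by 0.55 and Top2a by 0.48, and Tyms, Kif11, Nusap1, Ccnd1 and Cdkn1a were the others. Between border and remote zone Tyms alone was lower, by 0.30, beside 8.89% of all genes lower (20.7% in either direction). Infarct and border zones of untreated MI differed in 0 of the 45 genes and 0 of all genes by edgeR (0%), with 871 genes at an unadjusted p under 0.05. In sham hearts Pcna (0.42, adjusted p = 0.000402), Gins2 (0.63) and Cdk1 (0.53) were higher and Ccnd2 and Cdkn1a lower in the infarct than in the remote position, beside 31.9% of all genes called. Between border and remote positions of shams, Pcna, Gins2, Ccnb1, Cdk1 and Aurkb were higher and Ccnd2 and Cdkn1a lower (27.7% of all genes called), and without sham replicate 5 this count of 7 became 3.

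In treated hearts 31 of the 45 genes were higher in the infarct than in the remote zone and 1 was lower, beside 32.8% of all genes higher and 31.4% lower (64.2% in either direction), with a median of 0.95. They included 11 S phase and 20 mitotic genes. Ccnb1 was higher by 1.56 (adjusted p = 0.00851), Mcm3 by 1.42 (adjusted p = 0.00355), Ube2c by 1.31 (adjusted p = 0.00604) and Mki67 by 0.96 (adjusted p = 0.0459), whereas Ccnd2 was lower by 1.69 (SE 0.32, adjusted p = 0.00105). Border tissue had 23 genes higher than in the remote zone and Cdkn1a was lower (-0.58, adjusted p = 0.0110), beside 27.7% higher and 21.3% lower (49.0% in either direction). Mcm3 was higher by 1.30 (adjusted p = 0.00971) and Mki67 by 1.03 (adjusted p = 0.0409). Infarct and border zones of treated hearts differed in 0 genes (0%), with 3356 at an unadjusted p under 0.05.

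Whether the treatments differed by zone was tested as an interaction within animals. The difference between treated and untreated MI was larger, in the positive direction, in the infarct than in the remote zone for 4 mitotic genes, beside 1.02% of all genes (1.89% in either direction). They were Ube2c (1.78, SE 0.39, adjusted p = 0.0331), Hmmr (1.41, SE 0.31, adjusted p = 0.0332), Bub1 (1.36, SE 0.33, adjusted p = 0.0396) and Anln (1.65, SE 0.42, adjusted p = 0.0449). The median over the 45 was 1.22, and 37 had an unadjusted p under 0.05, beside 4308 of all 17583 genes. Mki67 was at 1.41 (adjusted p = 0.0719) and Ccnb1 at 1.69 (adjusted p = 0.0593). Without treated replicate 1 this interaction was called for 30 of the 45, 25 mitotic and 5 S phase genes, beside 13.3% of all genes. Between border and remote zones 0 of the 45 passed, beside 2.74% of all genes called. At an unadjusted p under 0.05 there were 27 of the 45 and 3555 of all 17583 genes. Between infarct and border zones 0 of the 45 passed, beside 0.125% of all genes called. There, 1 of the 45 and 2363 of all genes had an unadjusted p under 0.05. The MI effect against sham was smaller in the infarct than in the remote zone for Tyms (-0.57, SE 0.12, adjusted p = 0.00145), Pcna (-0.46, SE 0.12, adjusted p = 0.00554), Ccnd1 (-0.51, SE 0.16, adjusted p = 0.0183) and Pbk (-0.99, SE 0.36, adjusted p = 0.0421), beside 14.5% of all genes smaller (28.2% in either direction). Without sham replicate 5 the count was 4 again. For the MI effect, 0 of the 45 passed between border and remote zones (4.51% of all genes called) and 0 between infarct and border zones (0.00586%). In each, 3 of the 45 had an unadjusted p under 0.05, beside 4471 and 1480 of all 17068 genes.

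Reads could be shared between neighbours for some of these genes. In the RefSeq table of GRCr8, 16 of the 45 spans overlap that of another gene, among them Kif20a with Cdc23, Anln with Matcap2, Rrm2 with Cys1, Plk1 with Ern2, Ccne2 with Ints8 and Mcm7 with the miRNA genes Mir106b, Mir25 and Mir93. How strand was treated in counting is not given in the sources used here, so counts of these genes carry that uncertainty. Whether transcripts of the human sheet were counted on rat genes was not tested.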

How the data were processed

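Poly(A) RNA was sequenced as paired ends from 54 libraries, 1 per heart and zone. Per the submitters' notes and the study's methods, the authors aligned the reads with STAR to mRatBN7.2 and tested with DESeq2. They deposited raw read counts per gene, not normalized, 1 file per library. The counter is not given in the sources used here. The 5 summary lines of each file, with 17.0% to 42.8% of the counts, were left out.

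edgeR 4.0.16 and DESeq2 1.42.0 were run in R 4.3.3, beside limma 3.58.1. Groups were compared with the quasi-likelihood F test of edgeR (TMM, filterByExpr, Benjamini-Hochberg over all genes tested, threshold 0.05) on the libraries of the 2 groups compared. Zones and interactions were fitted with the animal as a block. Levels are CPM with TMM factors over all 54 libraries, and scores are means of log2(CPM + 0.1). Depth makes counting error small beside the spread of animals except for low genes. The tests were first tried on simulated data. No 2 libraries of a group were identical (chi-square per degree of freedom 7.97 to 539).

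The members and all lists were chosen with earlier results of these data known. Levels were to be given for Mki67, Top2a, Cdk1, Ccnb1, Rrm2, Mcm5, Pcna, Ccnd1, Ccnd2, Cdkn1a and the 3 members with the smallest p in each comparison of treatments. In the other cell cycle lists, the 2 called genes with the largest change could be named, and Foxm1, Mybl2, Mdm2 and Ccng1 in any case. Cell type lists are scores of markers, and no cell type was assigned. Promoters are RefSeq's (GRCr8), and no coordinate was joined to the counts. Alternatives were library size alone, DESeq2, no filter, at least 10 counts in every library, the replicate number as a block, all 9 groups in one fit and leaving out each library. Comparisons of treated hearts with sham, and the interactions, without cell sheet replicate 1 were added after seeing the data. Human transcripts were not analysed here.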

Additional observations from a re-analysis of the deposited data

Results flagged for a closer look

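For the 10 genes described by their levels, each group of 6 was searched for a lone extreme library (Dixon's criterion at 95%), and 25 of 90 groups held one, where chance gives about 1 in 20. Of these, 22 were sham replicate 5, always as the highest library. Its infarct, border and remote values were 110.18, 118.72 and 122.38 CPM for Mki67, 65.045, 79.351 and 75.345 CPM for Top2a, and 25.457, 25.64 and 18.608 CPM for Cdk1. They were 25.171, 24.067 and 21.804 CPM for Ccnb1, 36.956, 44.846 and 31.679 CPM for Rrm2, and 58.237, 65.053 and 49.145 CPM for Mcm5. For Pcna they were 99.255, 103.89 and 75.687 CPM, and Ccnd1 was flagged in the border position alone, at 199.73 CPM. This is the animal with T cell receptor transcripts in a strain without a thymus, and what was sampled there was not tested.

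The other 3 were cell sheet replicate 6, the lowest treated infarct library for Top2a at 15.356 CPM, MI replicate 3, the highest border library for Pcna at 77.599 CPM, and MI replicate 6, the highest infarct library for Pcna at 72.413 CPM.

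A tested difference between zones flagged 8 interactions. The difference of MI from sham was smaller in the infarct than in the remote zone for Tyms (-0.572614), Pcna (-0.464281), Ccnd1 (-0.508654) and Pbk (-0.99496). The difference of treated from untreated MI was larger, in the positive direction, in the infarct than in the remote zone for Ube2c (1.77932), Hmmr (1.40577), Bub1 (1.35782) and Anln (1.65493). All are log2 values from edgeR's test with the animal as a block.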

How the results depend on the processing

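Of the alternative counts of called genes, 121 stayed within 1.5 times the main count, 15 were larger and 52 smaller. Of the log2 fold changes of the 10 genes described by their levels, 629 kept direction and call, 60 gained and 20 lost the call, and none that was called reversed. Leaving out libraries gave 11 to 41 genes called for MI against sham in the infarct zone, 11 to 43 in the border and 15 to 43 in the remote zone, and for cell sheet against MI 0 to 0, 1 to 5 and 1 to 40, and 1 to 2 on summed infarct and border counts. For cell sheet against sham the counts were 19 to 41 in the infarct and 4 to 38 in the border zone without the 2 animals that stood apart. Without sham replicate 5 the sham border to remote count was 3 in place of 7, and without cell sheet replicate 1 the interaction of the sheet effect was 30 in place of 4 (infarct against remote) and 1 in place of 0 (infarct against border, Pcna).

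The replicate numbers do not pair hearts across treatments (correlations -0.72 to 0.58 over 54 values). With the replicate block the count for MI against sham in the infarct zone was 32 in place of 19, and for cell sheet against sham in the border zone 22 in place of 7. The replicate block left 0 genes for cell sheet against MI in the border zone, the remote zone and the sum. No replicate block, in the comparisons of zones within animals, gave 5 in place of 9 (MI, infarct against remote), 0 in place of 1 (MI, border against remote), 19 in place of 32 and 10 in place of 24 (cell sheet), 0 in place of 5 and 0 in place of 7 (sham), and 1 in place of 4 and 0 in place of 4 for the interactions of MI and of cell sheet between infarct and remote zones.

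DESeq2 called 3 genes for cell sheet against MI in the border and 26 in the remote zone. Library size alone gave 0 in the border zone and 0 on the sum. No filter gave 7 in the remote zone and 1 on the sum, and 4 for cell sheet against sham in the border zone. All 9 groups in one fit gave 6 for cell sheet against MI in the remote zone and 14 for cell sheet against sham in the border zone. Library size alone also shifted the split of higher and lower calls to 22 and 0 for MI against sham in the infarct zone, 10 and 0 for cell sheet against sham in the border zone, 2 and 5 for infarct against remote and 1 and 0 for border against remote in MI, with the median of all genes moved by 0.09 to 0.28. The cause of these changes was not tested. Libraries of a group differed by 7.97 to 539 in chi-square per degree of freedom, so counting error was the smaller part of their spread.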

Other observations

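Of 7 inhibitors of cyclin-dependent kinases other than Cdkn1a, 6 rose in infarct, 4 in border and 3 of the 6 tested in remote tissue of untreated MI, none fell, and the medians were 0.97, 1.00 and 1.14, where 22.7%, 18.4% and 11.7% of all genes rose. Cdkn1b, which encodes p27, was at -0.10, -0.04 and -0.07 and passed in none. Cdkn2b, which encodes p15, rose by 4.32 on the log2 scale (SE 0.77, adjusted p = 0.00133) in the infarct zone and by 3.38 (SE 0.61, adjusted p = 0.0021) in the border zone. Cdkn2a, the INK4A and ARF locus, rose by 3.07 (SE 0.77, adjusted p = 0.00666) in the infarct zone. Cdkn3, a phosphatase that acts on CDKs, rose by 1.92 (adjusted p = 0.0143) in the border and 2.22 (SE 0.57, adjusted p = 0.0132) in the remote zone, and Cdkn2c by 1.27 (SE 0.27, adjusted p = 0.0056) in the remote zone. In treated against untreated MI, Cdkn3 fell by 1.72 (SE 0.44, adjusted p = 0.0218) in the remote and by 1.00 (adjusted p = 0.0191) in the border zone. Cdkn2d, which encodes p19, fell by 0.82 (SE 0.13, adjusted p = 0.00188) in the border and 0.64 (adjusted p = 0.0265) in the remote zone.

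Of 15 known targets of p53, a set that includes neither Cdkn1a nor any other of the 45 genes, 7 rose and 2 fell in infarct, 6 rose and 1 fell in border and 1 rose in remote tissue (medians 0.29, 0.41 and 0.14), beside 49.9%, 41.7% and 25.8% of all genes called in either direction, shares that these counts do not clearly exceed. Phlda3, an inhibitor of AKT, rose by 1.45 (SE 0.18, adjusted p = 0.000172) in the infarct and 1.21 (adjusted p = 0.000563) in the border zone. Ccng1, cyclin G1, fell by 1.38 (SE 0.39, adjusted p = 0.0126) in the infarct and by 1.00 in the border zone, and Mdm2, the ubiquitin ligase of p53, was at 0.03, -0.04 and -0.07 and passed in none. None of the 15 passed between treated and untreated MI in any zone. Of 8 growth genes 1 rose in each zone and 1 fell in the infarct and border zones (medians 0.26, 0.30 and 0.38). Myc rose in the infarct zone by 1.19 (adjusted p = 0.0356), and Mycn fell there by 1.29 (adjusted p = 0.0373).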
